A study of Mus musculus with 12 samples.

Results

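Macrophages in which Klf6 had been deleted were compared with control macrophages in the absence of TNF, and the comparison was made over every gene of the table that holds the untreated libraries. It rests on 6 of the 12 libraries of the study. KLF6, the product of Klf6, is one of the Krüppel-like zinc-finger proteins, which bind GC-rich and CACCC sequences in promoters. In macrophages KLF6 is known as a partner of NF-kB in inflammatory gene expression, and the series asks about its part in experimental atherosclerosis, a disease in which macrophages take up lipid in the arterial wall. Macrophages grown from bone marrow depend on the growth factor CSF1, whose receptor sustains their survival. Their lineage factors include PU.1, C/EBP and MAF.

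The cells were bone marrow-derived macrophages, cultured in DMEM with serum, from mice of 2 genotypes. The control genotype, Lyz2cre, carries the Cre recombinase in the lysozyme 2 locus, and the other, Klf6fl/fl:Lyz2cre, carries in addition loxP-flanked Klf6 alleles. Cre was thus present in both groups, and cells that do not express Lyz2, such as fibroblasts of the marrow, are not expected to delete Klf6. Neither group received TNF, and each was sequenced in 3 libraries of total RNA depleted of ribosomal RNA. The sources used here do not give age, sex, strain or the animal behind each library. The p-values therefore reflect only how far these libraries scatter, and that scatter may be technical. The Klf6fl/fl:Lyz2cre cells are called Klf6-deleted in the text. Values are normalized counts, that is reads per gene divided by a size factor of the library. They are given for libraries 1, 2 and 3 of a group in turn or as mean ± SD with n = 3, Klf6-deleted first. Fold changes are on the log2(value + 1) scale and are too small for genes of low level.

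The Klf6-deleted libraries held 18.9 to 23.4 M reads on 19880 to 20169 genes, and the Lyz2cre libraries 17.3 to 19.0 M reads on 18332 to 18846 genes. Libraries of 1 genotype had correlations of 0.990 to 0.995 over genes on the log scale and libraries of different genotype 0.924 to 0.933. By these correlations no library stood apart from its group. Of 12715 genes tested, 7230 changed, which is 56.9% (limma, Benjamini-Hochberg adjusted p below 0.05). Of these, 3508 were higher in Klf6-deleted cells, 27.6% of the genes tested, and 3722 were lower, 29.3%. The groups did not overlap for 62.3% of genes. Large changes were mostly increases, since 1408 genes, or 11.1%, rose at least 2-fold and 345, or 2.71%, fell at least 2-fold. At 8-fold the counts were 381 higher (3.0%) and 12 lower (0.0944%). With so many genes called, the count of a gene list is read against these shares. A list is counted over its members that reached 1 CPM in 3 or more libraries, so a gene read in only 1 genotype passes through that group. Scaling to total reads in place of the deposited size factors raised the median log2 change of all genes by 0.13 and gave 5121 higher and 2408 lower genes, 68.0% higher in place of 48.5%, so small decreases depend on the scaling.

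**Figure D1:**
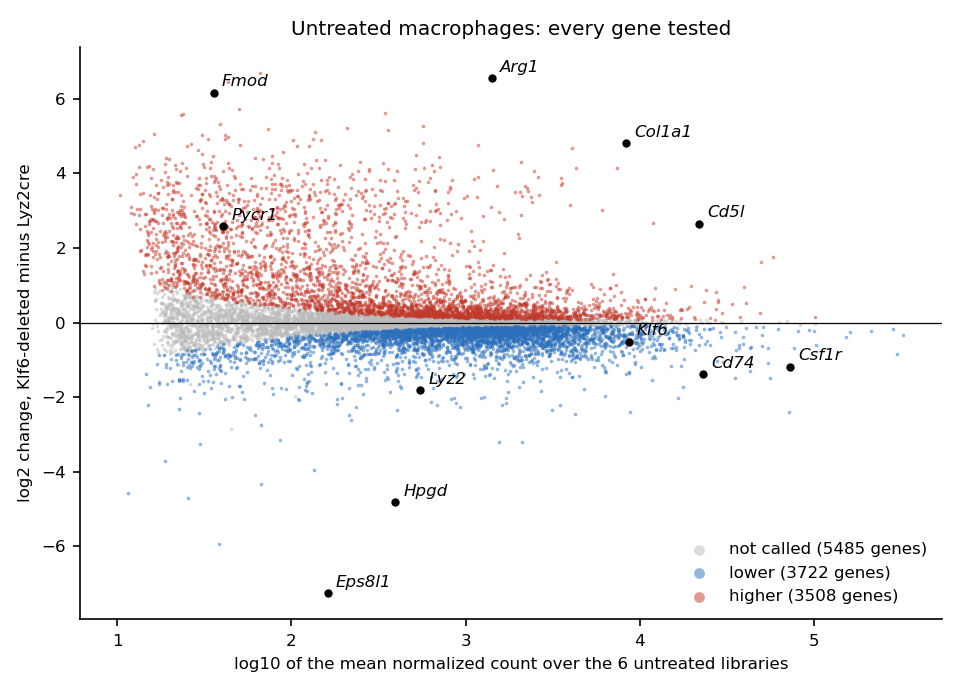
Every gene tested in untreated cells, with the log10 of the mean normalized count over the 6 libraries on the x axis and the log2 change, Klf6-deleted minus Lyz2cre, on the y axis. Red points are the 3508 genes called higher, blue points the 3722 called lower, and large changes lie mostly above 0.

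Markers of other cell types were summed in each library as a share of its normalized counts. The macrophage markers, which include Csf1r, Adgre1, Cd68, Mertk, Fcgr1 and Itgam, were all detected in both groups and summed to 3.78 to 3.94% in Klf6-deleted and 5.15 to 5.27% in Lyz2cre libraries. Markers of marrow stromal cells, the fibroblast-like cells that support blood formation, summed to 0.304 to 0.322% against 0.0180 to 0.0217%, a 15.3-fold difference of the means. Smooth muscle and pericyte markers summed to 0.0537 to 0.0572% against 0.00357 to 0.00424%, monocyte markers to 0.327 to 0.349% against 0.145 to 0.151% and endothelial markers to 0.0256 to 0.0264% against 0.0140 to 0.0151%. The monocyte sum includes Fn1, Thbs1 and Vcan, matrix genes that stromal cells also express. Osteoblast and cartilage markers summed to 0.458 to 0.515% against 0.121 to 0.133%, a 3.77-fold difference of the means. Nearly all of that sum was Spp1, osteopontin, which macrophages make too. T and NK cell markers summed to 0.0519 to 0.0558% against 0.0274 to 0.0297%, a 1.90-fold difference. Only 2 T and NK cell markers passed the filter on low values, and 1 rose (log2 change 0.83) and 1 fell (-1.81). Neutrophil and granule markers were lower, at 0.0617 to 0.0642% against 0.0715 to 0.0775%. None of the 20 stromal, 14 smooth muscle, 16 monocyte or 15 endothelial markers was at 0 in either group, and of 12 osteoblast and cartilage markers in the table only Dmp1 was, in Lyz2cre libraries. The stromal rise was present in all 3 Klf6-deleted libraries and so moves with every difference between genotypes given here. Its part in them was not tested. In RNA from many cells, fewer cells of a type and less RNA per cell cannot be told apart.

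**Figure D2:**
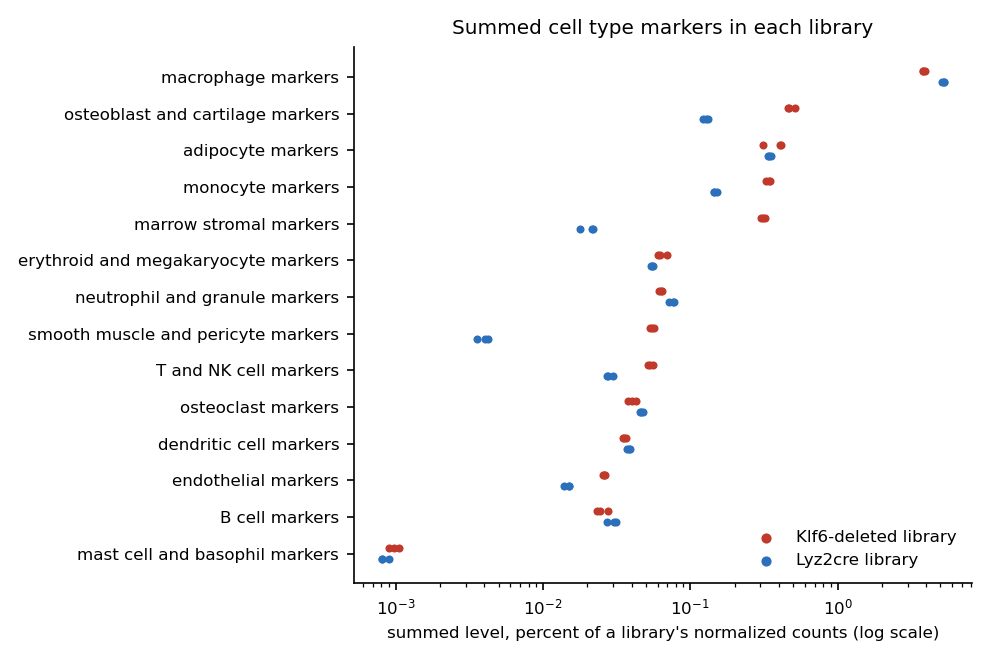
Summed level of 14 cell type marker lists in each library, as percent of that library's normalized counts on a log scale, with red points for Klf6-deleted and blue points for Lyz2cre libraries. The stromal and the smooth muscle lists show the widest gaps, and the 3 libraries of a group lie close together.

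Klf6 was measured at 7004, 7405 and 6894 normalized counts in Klf6-deleted and at 10055, 9984 and 10314 in Lyz2cre libraries. All 3 Klf6-deleted libraries lay below the Lyz2cre libraries, by a log2 change of -0.51 with a standard error of 0.0359 (limma, adjusted p = 7.1e-10). Klf6 (ENSMUSG00000000078, chr13:5861482-5870394, plus strand, GRCm38) is read per gene, so exons outside the loxP sites, whose position is not given in the sources used here, would be counted too and the value does not measure how far the gene was deleted. Its relatives did not move as one. Of 19 Klf and Sp genes in the table, 15 passed the filter on low values, and 5 of them rose and 8 fell. Klf7 rose from 325, 257 and 296 to 563, 571 and 571, the largest increase of the family, 1.95-fold (limma, adjusted p = 2.2e-08). Klf4, a factor tied to monocyte differentiation and alternative activation, was at 582, 606 and 613 against 350.1, 319.6 and 323, 1.81-fold higher. Klf2, which restrains inflammatory activation of myeloid cells, was at 1192, 1160.4 and 1216 against 809, 821 and 744, 1.50-fold higher, and Klf9 at 521 ± 25.1 against 345 ± 11.2. In none of these 4 did the groups overlap. The repressor Klf3 fell 1.46-fold, from 2041, 2008 and 1931 to 1339, 1329.9 and 1419. Klf11 and Klf13 fell too, at 331 ± 2.46 against 468 ± 37.1 and 2637 ± 37.7 against 3161 ± 128. Sp1, the widely expressed founder of the Sp factors, did not pass the test at 2551 ± 54.2 against 2662 ± 66.3 (limma, adjusted p = 0.2). Scaled to total reads, 5 of the 15 fell and 5 rose.

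**Figure D3:**
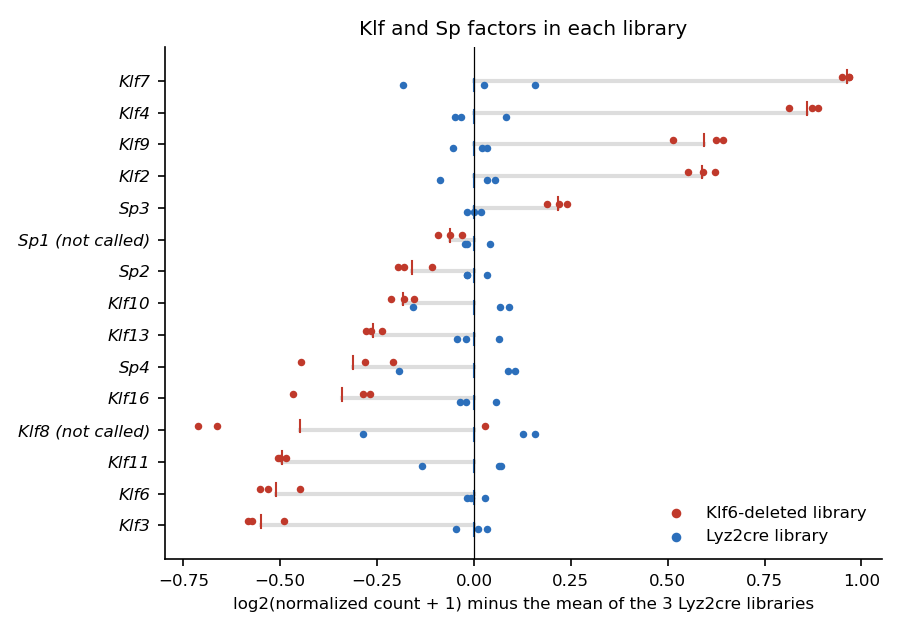
Klf and Sp genes in each untreated library, as log2(normalized count + 1) minus the mean of the 3 Lyz2cre libraries, with red points for Klf6-deleted and blue for Lyz2cre libraries and short lines at group means. Klf7, Klf4, Klf9 and Klf2 lie to the right in all 3 Klf6-deleted libraries, and Klf3, Klf6 and Klf11 to the left.

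Every gene of the amino acid stress response list rose. Cells short of amino acids translate the transcription factor ATF4, which pairs with C/EBP proteins at composite elements and raises genes for amino acid synthesis, amino acid transport and the charging of transfer RNA. All 27 genes of the list passed the filter and were called higher, against 27.6% of genes tested. The groups did not overlap for 25 of them, against 62.3% of genes tested. The members were chosen with earlier results of these data known, so these counts are a description and not a test. The list had a median log2 change of 0.88 against -0.01 over all genes. The count was 27 also by edgeR, by DESeq2, with the other pseudocount, with the replicate block and scaled to total reads, 26 with no filter, 24 with the filter at 5 CPM and 25 to 27 with any 1 library left out, where Slc3a2 and Wars were the genes that lost the call. The letters TGATGNAA of the C/EBP-ATF element were looked for on both strands of RefSeq promoters (GRCm38.p6), 250 bases before to 50 after the start of a gene, a motif chosen after the values of the list had been seen. They were found in 8 of the 22 promoters that matched a member of the list (36.4%), in 2.26% of those of genes tested, in 4.06% of all 27025 promoters, in 2.64% of those of genes that rose and in 2.32% of those of genes that fell. The members with the largest increases whose upstream 250 bases hold the motif were Pycr1 (chr11:120643749-120643998 on the minus strand) and Chac1 (chr2:119350992-119351241 on the plus strand), shown 5′ to 3′ with the match in capitals, in Chac1 as the reverse complement.
Pycr1: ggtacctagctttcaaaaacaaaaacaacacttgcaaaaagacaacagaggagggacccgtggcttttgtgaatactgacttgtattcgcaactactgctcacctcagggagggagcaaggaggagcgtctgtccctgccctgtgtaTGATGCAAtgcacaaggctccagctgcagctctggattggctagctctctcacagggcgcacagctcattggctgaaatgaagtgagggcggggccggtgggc
Chac1: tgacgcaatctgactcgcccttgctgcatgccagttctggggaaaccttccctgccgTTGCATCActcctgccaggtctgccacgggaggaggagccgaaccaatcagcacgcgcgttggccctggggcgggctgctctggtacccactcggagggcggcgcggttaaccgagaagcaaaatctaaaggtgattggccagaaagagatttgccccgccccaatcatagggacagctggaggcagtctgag

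Among the regulators of this response, Atf4 was at 4444, 4519.9 and 4499 against 3091, 2988 and 2899, 1.50-fold higher with no overlap (limma, adjusted p = 2.2e-10). Its partner Ddit3, which encodes CHOP, was at 658, 689 and 699 against 464, 441 and 482. Trib3, a pseudokinase induced by ATF4 and CHOP, was at 322, 391 and 373 against 104, 125 and 80.9, 3.52-fold higher. All 3 regulators were higher in every Klf6-deleted library than in any Lyz2cre library. The enzymes of serine synthesis rose together. Phgdh, the entry enzyme, was at 461, 364 and 433 against 121, 95.6 and 125, and Psat1 at 824, 722 and 719 against 339, 285 and 273. The last step, Psph, was at 186 ± 5.53 against 101 ± 14.5. Of the mitochondrial folate enzymes, Shmt2, which uses serine, was at 1356 ± 29.3 against 821 ± 16.0 and Mthfd2 at 1014 ± 111 against 318 ± 44.2. In none of these 5 did the groups overlap.

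Asparagine synthetase, Asns, was at 714, 788 and 714 against 270.3, 248 and 224, 2.98-fold higher (limma, adjusted p = 1.4e-11). The 2 enzymes that make proline from glutamate also rose. Aldh18a1 was at 484 ± 25.0 against 177 ± 30.0, and Pycr1, whose promoter is shown above, was at 73.4, 71.8 and 64.1 against 8.75, 18.2 and 7.66, 6.02-fold higher with a standard error of 0.322 on the log2 scale. Proline and glycine are main residues of collagen. Chac1, which degrades glutathione, was at 91.7, 91.7 and 71.4 against 27.4, 24.2 and 16.4. Of the transporters, Slc7a5 for large neutral amino acids was at 639, 633 and 593 against 205, 238 and 219, and Slc7a11, the cystine carrier, at 113, 132 and 149 against 51.4, 56.9 and 58.0. Their shared heavy chain Slc3a2 rose by 0.10 on the log2 scale, at 7077, 7356 and 7499 against 6698, 7154 and 6631, and here the groups overlapped. The transfer RNA synthetase genes Aars and Wars rose 1.81-fold and 1.13-fold, with overlapping groups for Wars. Ddit4 and Sesn2, both inhibitors of mTORC1, were at 282 ± 10.7 against 51.4 ± 5.02 and 734 ± 33.1 against 417 ± 44.3. Vldlr, a lipoprotein receptor that ATF4 induces, had the largest change of the list, at 173, 139.6 and 181 against 18.6, 20.6 and 14.2.

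**Figure D4:**
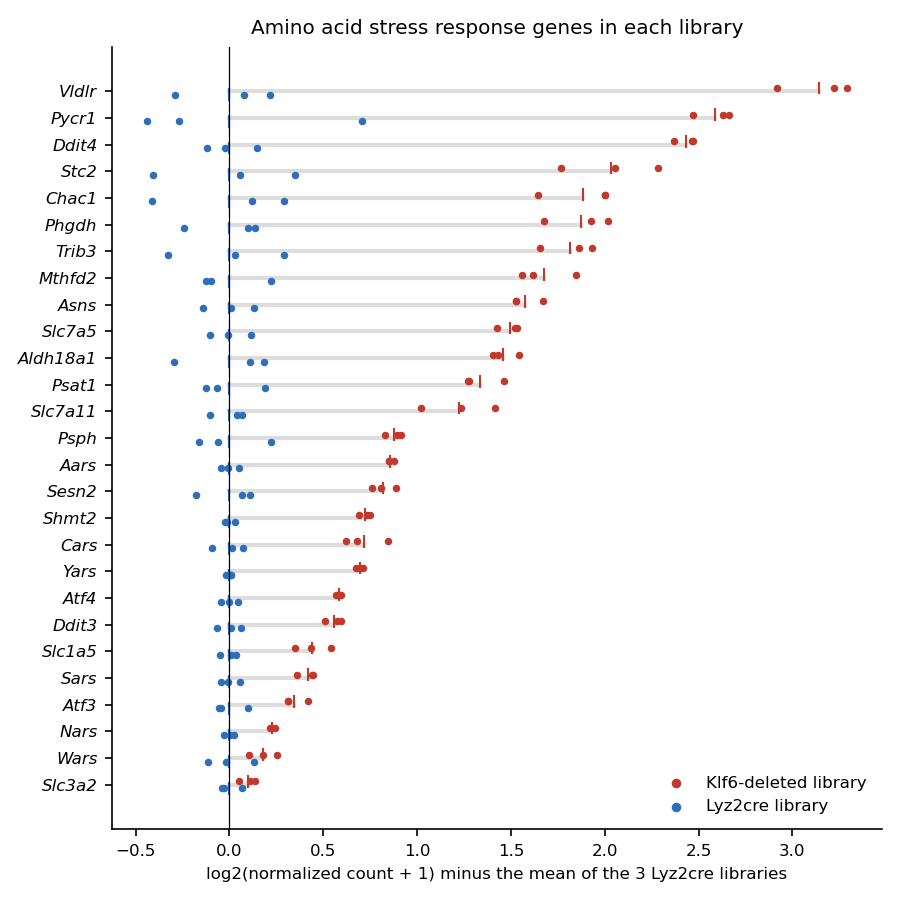
The 27 amino acid stress response genes in each untreated library, as log2(normalized count + 1) minus the mean of the 3 Lyz2cre libraries, with red points for Klf6-deleted and blue for Lyz2cre libraries and short lines at group means. All 27 group means lie to the right of 0, from 0.10 for Slc3a2 to 3.14 for Vldlr, and the groups overlap for 2 genes.

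Chaperones of the endoplasmic reticulum, which answer to misfolded protein through the sensors ATF6 and IRE1, did not follow. Of 21 measured, 4 rose and 7 fell, with a median log2 change of -0.01. The chaperone BiP, Hspa5, was at 10419.6, 10328 and 10522 against 10417, 10657 and 10421 and did not pass the test (limma, adjusted p = 0.81), but was called higher when scaled to total reads (log2 change 0.12, limma adjusted p = 0.0021). Herpud1 fell from 929, 1009.7 and 957 to 493, 494 and 517, Xbp1 was at 1914 ± 70.8 against 2544 ± 37.1, and Hyou1 rose to 2606 ± 56.3 against 1862 ± 17.9. Scaled to total reads, 13 rose and 5 fell, with a median of 0.13.

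Arg1, which encodes arginase 1, was at 2451, 2524 and 3399 against 32.8, 27.8 and 25.2 normalized counts. The 3 Klf6-deleted libraries were far above the others, 93.8-fold (limma, adjusted p = 1.2e-17). Arginase splits arginine into ornithine and urea, and 11 of 18 genes of arginine, polyamine and nitric oxide metabolism rose and 5 fell. The arginine carrier Slc7a1 was at 1119 ± 104 against 459 ± 38.5, argininosuccinate synthase Ass1 at 109, 92.7 and 95.8 against 32.8, 29.1 and 33.9, and Ddah1, which degrades methylated arginine, at 281, 230.3 and 242 against 16.4, 21.8 and 30.6. Ornithine decarboxylase Odc1, the entry to polyamines, was at 1153 ± 33.2 against 785 ± 50.8, and Azin1, which protects it from decay, at 5308 ± 339 against 2875 ± 42.1. Sat1, which acetylates polyamines for export, fell to 4189, 4361 and 4315 from 7547, 7807 and 7627. Acod1, whose enzyme makes itaconate, was at 387, 426 and 497 against 51.4, 61.7 and 15.3. Of the other genes of alternative activation, Irf4 fell to 109 ± 29.2 against 406 ± 21.2, Cd163 to 324 ± 31.6 against 1442 ± 61.1 and Mrc1 to 8241 ± 1140.0 against 27307 ± 253. That list had 5 of 17 higher and 10 lower, so Arg1 did not move with most of its members.

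Among genes with an established symbol and a mean of at least 50 in the higher group, several of the 12 with the largest increases act in matrix, bone or growth factor signalling. Fmod, the collagen-binding proteoglycan fibromodulin, was at 60.9, 85.7 and 68.2 in Klf6-deleted libraries and had no read in any Lyz2cre library, so it was at least 63.3-fold higher at a floor of 3 reads over the group. Dio3, the enzyme that inactivates thyroid hormone, was at 93.4, 85.7 and 118 against 1.09, 0 and 2.19. Sfrp1, a secreted Wnt antagonist, was at 711, 602 and 709.6 against 18.6, 8.47 and 13.1, and Alpl, the alkaline phosphatase of bone, at 719, 581 and 788 against 18.6, 14.5 and 21.9. The collagen receptor subunit Itga11 was at 405 ± 1.51 against 10.2 ± 3.34, Ccn5, a matricellular protein, at 1107 ± 47.0 against 27.9 ± 1.48, the receptor tyrosine kinase Ret at 143 ± 37.7 against 2.99 ± 1.20 and Pappa, a protease that frees insulin-like growth factors, at 265 ± 86.2 against 6.72 ± 2.73. Elfn1, Kng1 and the immunoglobulin segment Ighv4-1 were among them too, at 60.4 ± 3.97 against 1.09 ± 1.09, 76.3 ± 11.4 against 1.17 ± 1.21 and 81.1 ± 14.9 against 1.54 ± 0.766. Like Arg1, which is among the 12, these genes had at most 32.8 normalized counts in any Lyz2cre library.

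By the same rule, genes of other kinds were among the 12 with the largest decreases. Eps8l1 was at 0.834, 0 and 4.06 against 311, 335 and 316. Hpgd, which inactivates prostaglandins, fell 28.2-fold to 24.2, 27.9 and 26.0. Gpr34, a receptor for lysophosphatidylserine, was at 6.67, 20.9 and 23.5 against 210.1, 276 and 269. Aoah, an enzyme that removes acyl chains from lipopolysaccharide, was at 277, 237 and 435 against 2871, 2752 and 2782, and Gpr137b-ps at 358, 421 and 467 against 3817, 3853 and 3709. Chp2, Gabbr2, Cables1, Tox2, the potassium channel Kcnj10 and the small nuclear RNA Rn7sk also fell, by 5.56 to 20.1-fold. The groups did not overlap for any of the 24 genes, which were picked by the size of their change. Over all genes tested they did not overlap for 62.3%.

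Factors that set the macrophage lineage were mostly lower. Of 25, 18 fell and 6 rose, with a median log2 change of -0.33. Spi1, which encodes PU.1, was at 6523, 6175 and 6677 against 8610.3, 8528 and 8563, 1.33-fold lower (limma, adjusted p = 1.7e-08). Maf fell by a larger step, to 8101, 7805 and 9032 from 15882, 16185 and 16427, and Spic, a factor of iron-recycling macrophages, to 23.3, 20.9 and 16.2 from 67.8, 81.1 and 54.7. Id3, an inhibitor of helix-loop-helix factors, rose 4.37-fold to 540.1, 570.2 and 530.2. Scaled to total reads, 13 of the 25 fell and 7 rose. Of 21 macrophage markers, 15 fell and 5 rose. The CSF1 receptor gene Csf1r was at 45192, 41762 and 46819.7 against 101591, 100598 and 101018, 2.27-fold lower, while the gene of its ligand, Csf1, was at 3387, 3539 and 3169.6 against 675, 587 and 669. Adgre1, which encodes F4/80, was at 34816 ± 889.8 against 73807 ± 928 and C1qa at 19358 ± 1667 against 40590.0 ± 1274. A pair of markers went the other way by over 3-fold, Cd36, the receptor for oxidized lipoproteins, at 76462, 78973 and 68236 against 23684, 24994 and 23356, and Cx3cr1 at 466, 381 and 385 against 117, 136 and 148.

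Genes typical of monocytes, the blood cells from which macrophages form, rose in number. Of 16, 14 rose and 1 fell, with a median log2 change of 2.10. Ly6c2, a surface antigen of inflammatory monocytes, was at 626, 645 and 714 against 174, 225 and 163, and the chemokine receptor Ccr2 at 3995, 3823 and 4486 against 1883, 1793 and 1812. Other members of the list, such as Fn1, Thbs1 and Vcan, encode matrix proteins that stromal cells also make. F13a1, the factor XIII subunit of monocytes and resident macrophages, fell to 2183, 2190.2 and 3479.7 from 10298, 9726 and 9745. Of 16 neutrophil and granule genes 4 rose and 9 fell. The largest change among those that rose was that of Mmp8, a collagenase of neutrophil granules, at 278, 338 and 499 against 128, 119.9 and 123. Mpo and Elane, of early myeloid progenitors, rose to 600.2 ± 27.7 against 439 ± 63.9 and 352 ± 18.4 against 253 ± 11.7, while Ltf and S100a8, of later neutrophils, fell to 689 ± 68.8 against 1335 ± 62.3 and 1405 ± 117 against 1841 ± 110.5.

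Surface receptors by which macrophages sense and engulf were lower in most families. Of 20 Fc receptors and immunoglobulin-like receptors, 15 fell and 5 rose, against 29.3% and 27.6% of genes tested. The inhibitory IgG receptor Fcgr2b was at 1106, 1154 and 1750.4 against 7016, 7565 and 6947, 5.48-fold lower, and the activating Fcgr3 at 4268, 4429 and 5104 against 11781, 12341 and 11738. The activating Fcgr4 rose, at 3288, 3586 and 3665 against 1879, 1898 and 1804, as did Cd300lf at 1057 ± 146 against 256 ± 24.7. Pirb, an inhibitory receptor for MHC class I, was at 2721, 2566 and 3208 against 14625, 14692 and 15005, with the reservation that its near-identical relatives may share reads. Pirb lies on proximal chromosome 7, as does Eps8l1 (chr7:4460674-4480487, GRCm38), given above among the largest decreases. Whether their position has a part in either fall was not tested. Of 16 C-type lectins, 10 fell and 1 rose, Clec4d, with 2 risen genes without Lyz2cre library 1. Clec7a, the dectin-1 receptor for fungal glucan, was at 2189.8, 2422 and 1903 against 5753, 6307 and 5735, and Clec10a at 1293 ± 118 against 2960.2 ± 106. Of 12 scavenger receptors 7 fell and 4 rose, with Stab1 at 29369.8, 28569 and 30557 against 84593, 80355 and 83001.

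Genes for the clearance of dying cells and for complement had 16 of 24 lower and 6 higher. Of the TAM receptors, which bind apoptotic cells through the bridging protein GAS6, Mertk was at 1549, 1539 and 1595 against 3416, 3139 and 3396 and Axl at 4647, 4319.6 and 4325 against 2443, 2284 and 2372. The third TAM receptor, Tyro3, was at 38.3, 41.9 and 32.5 against 1.09, 10.9 and 7.66, the largest increase of the list. The groups did not overlap for any of the 3, of which Mertk fell and Axl and Tyro3 rose. Gas6 itself fell 4.05-fold, to 6238, 6152 and 7281 from 26274, 26539.7 and 26665. Of 23 Toll-like receptor genes and their adaptors, 13 fell and 5 rose. Tlr2 was at 714, 672 and 859 against 2047, 1859.5 and 1985, and Unc93b1, which carries the nucleic acid receptors to endosomes, at 18564, 17539 and 18608 against 37433, 37837 and 37210.0. Tlr7 fell to 5616 ± 267 against 8696 ± 187 and Tlr13 rose to 9402 ± 115 against 7925 ± 139.7, while Tlr4, the receptor for lipopolysaccharide, was at 2867 ± 36.2 against 2898 ± 90.4 and did not pass the test (limma, adjusted p = 0.76). Scaled to total reads, Tlr4 was called higher (log2 change 0.12, limma adjusted p = 0.014). With that scaling, 9 of these genes fell and 7 rose.

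**Figure D5:**
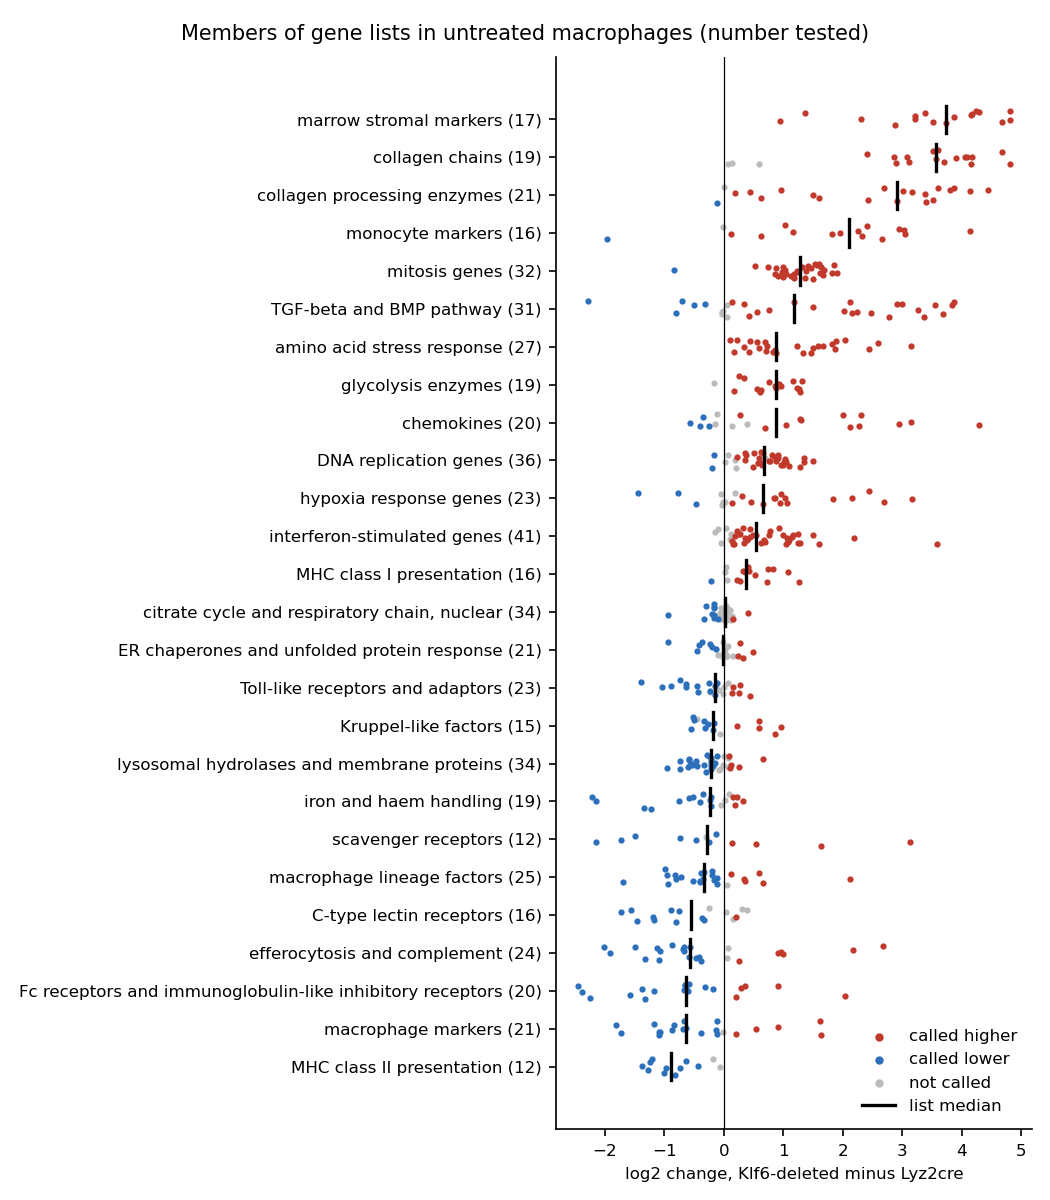
Members of 26 gene lists, 1 point per gene tested, with the log2 change (Klf6-deleted minus Lyz2cre) on the x axis, colours for the call and black lines at list medians. The lists run from marrow stromal markers, median 3.73, to MHC class II presentation, median -0.90.

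Interferon-stimulated genes are induced when interferon receptors activate factors of the STAT and IRF families, which bind an element of paired GAAA blocks in promoters. Of 41 measured, 35 rose and none fell. In the pathway that feeds them, 8 of 17 genes rose and 7 fell. The receptor genes were lower, Ifngr1 at 2737, 2798 and 2696 against 5355, 5562 and 5380.4 and Ifnar1 at 3108, 3239.9 and 3277 against 4379, 4312 and 4406. Of the downstream factors, Stat2 was higher at 4597 ± 121 against 2196 ± 74.4 and Irf1 at 3062, 4340.5 and 2782 against 1679, 1732 and 1706. The feedback inhibitors Socs1 and Socs3 were at 107 ± 13.8 against 34.7 ± 4.59 and 372 ± 88.0 against 184 ± 14.0. Klf6-deleted library 2 was the highest of its group for Irf1, Socs1, Gbp2, Iigp1 and Nlrc5. Without that library the list had 33 higher and none lower.

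The GTPase gene Gbp2 was at 1580.4, 2211 and 1562 against 352, 444 and 363 and Iigp1 at 1338, 1962 and 1219 against 119, 133 and 115, the largest changes of the list. Irf7 and Isg15 were at 4565 ± 295 against 2035 ± 184 and 653 ± 61.5 against 327 ± 27.5. Cxcl10, a chemokine induced by interferon, was at 118, 131 and 82.8 against 138, 110.2 and 115, with overlapping groups (limma, adjusted p = 0.49). The core of this element, GAAA, any 2 bases and GAAA, was looked for on both strands. It was in 19 of the 26 promoters matched to members that rose (73.1%), against 3.29% of promoters of genes tested and 3.49% of all. Over all tested members of the list the share was alike, 22 of 30 (73.3%), so the motif did not set apart those that rose. Among members that rose, Gbp2 (chr3:142620413-142620662 on the plus strand) and Ifi205 (chr1:174031756-174032005 on the minus strand) had the largest changes with the motif in the 250 bases upstream of the start, shown with the match in capitals, in Gbp2 as the reverse complement.
Gbp2: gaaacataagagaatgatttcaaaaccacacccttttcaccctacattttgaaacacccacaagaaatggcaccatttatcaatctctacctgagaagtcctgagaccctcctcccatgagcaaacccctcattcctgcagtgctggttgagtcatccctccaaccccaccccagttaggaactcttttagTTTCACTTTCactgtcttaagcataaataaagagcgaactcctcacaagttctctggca
Ifi205: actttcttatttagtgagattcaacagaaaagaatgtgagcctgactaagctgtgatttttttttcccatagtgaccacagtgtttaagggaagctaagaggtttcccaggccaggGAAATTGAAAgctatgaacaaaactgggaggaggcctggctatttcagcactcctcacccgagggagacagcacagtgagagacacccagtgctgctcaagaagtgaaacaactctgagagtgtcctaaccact

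Antigen presentation split by class. Of 16 genes of MHC class I presentation, 12 rose and 1 fell. Their transactivator Nlrc5 was at 2455, 2728 and 2379 against 1092, 1031 and 1026, the immunoproteasome subunit Psmb9 at 1580.1 ± 85.1 against 888 ± 29.7 and the class I chain H2-K1 at 48032 ± 1352 against 33459 ± 1054, while H2-D1 fell to 74690.0 ± 1897 against 87011 ± 5102. Reads of class I chains may be shared between near-identical genes, and scaled to total reads none of the list fell. Of 12 genes of class II presentation, 10 fell and none rose. Their transactivator Ciita was at 267, 343 and 335 against 632, 553 and 709, the beta chain gene H2-Ab1 at 3613, 3596 and 3800.4 against 8904, 9079 and 8637 and the co-stimulatory ligand Cd86 at 209.9 ± 23.4 against 499.8 ± 45.6.

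For 10 genes the genotype effect without TNF was set against that after 10 ng/ml TNF for 6 h, by the contrast of the within-table differences in limma. The share of genes whose 2 effects differed was 48.9% of 13062 tested. Gbp2, Iigp1 and Nlrc5 had opposite effects. After TNF, Gbp2 was at 3722, 3682 and 3492 in Klf6-deleted and 32058, 26289.8 and 32157 in Lyz2cre libraries, a log2 change of -3.05, where without TNF it was 2.19 (difference 5.24, standard error 0.151, limma, adjusted p = 4.9e-16). Nlrc5 was at 1692, 1608 and 1766 against 9307, 7547 and 8782 after TNF. All 3 genes were therefore higher in Klf6-deleted cells at rest and lower after TNF. Cd74, the class II invariant chain, had a log2 change of -1.38 without and -1.39 with TNF, a difference of 0.01 with a standard error of 0.0776 (limma, adjusted p = 0.93).

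Glycolysis converts glucose to lactate, and many of its genes can be induced by the hypoxia-inducible factor HIF1A. Of 19 glycolysis genes, 18 rose and none fell, with a median log2 change of 0.87. The glucose carrier Slc2a1 was at 1899.7, 1747 and 1800.0 against 779, 734 and 732, phosphoglycerate kinase Pgk1 at 10178, 9756 and 9947 against 4087, 3999 and 3986 and the lactate exporter Slc16a3 at 2409, 2254 and 2450.3 against 1044, 990.3 and 986. No group overlapped for these genes. Pfkm, the muscle form of phosphofructokinase, was at 339.9 ± 26.8 against 384 ± 32.3 and did not pass the test (limma, adjusted p = 0.11). Of 23 hypoxia response genes, 15 rose and 3 fell. Hif1a itself was at 3054, 2813 and 3269 against 2476, 2420.1 and 2474. Epas1, which encodes another hypoxia-inducible factor, was at 2653 ± 87.5 against 1380.3 ± 65.1. Adm, adrenomedullin, was at 346, 318 and 336 against 31.7, 46.0 and 32.8, Ddit4 at 269, 288 and 287 against 50.3, 56.9 and 47.0 and the collagen prolyl hydroxylase P4ha2 at 1084, 948 and 1025 against 146, 169 and 156. The 3 members that fell were Ndrg1, Pfkfb4 and Ccng2, at 695 ± 38.7 against 1886 ± 117, 821 ± 25.3 against 1395 ± 64.0 and 717 ± 11.6 against 996 ± 53.6.

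The core of the hypoxia response element, ACGTG, was in 10 of 12 matched promoters of hypoxia genes that rose (83.3%) and in 8 of 18 of glycolysis genes that rose (44.4%), against 25.9% of promoters of genes tested and 19.7% of all promoters. Over all tested members, whatever their change, it was in 11 of 18 hypoxia promoters (61.1%) and 9 of 19 glycolysis promoters (47.4%). It is a short motif and none of the motifs searched contains another. P4ha2 (chr11:54100674-54100923 on the plus strand) and Ddit4 (chr10:59951771-59952020 on the minus strand) are the hypoxia genes with the largest increases that hold it in the 250 bases before the start, given with the match in capitals.
P4ha2: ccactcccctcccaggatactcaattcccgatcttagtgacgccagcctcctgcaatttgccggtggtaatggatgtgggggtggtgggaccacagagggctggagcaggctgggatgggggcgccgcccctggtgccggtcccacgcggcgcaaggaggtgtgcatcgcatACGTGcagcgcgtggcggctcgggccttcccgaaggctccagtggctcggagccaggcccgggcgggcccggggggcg
Ddit4: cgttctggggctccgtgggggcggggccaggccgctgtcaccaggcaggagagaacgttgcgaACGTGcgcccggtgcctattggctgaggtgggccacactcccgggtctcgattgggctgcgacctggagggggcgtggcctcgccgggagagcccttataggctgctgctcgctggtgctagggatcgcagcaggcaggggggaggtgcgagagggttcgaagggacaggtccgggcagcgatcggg

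Genes of the citrate cycle and respiratory chain did not share this rise. Of 34 nuclear genes, 2 rose, 10 fell and 22 did not pass the test, with a median log2 change of 0.02. Fumarase, Fh1, fell from 1255, 1391 and 1258 to 649, 646 and 736, the largest change among them, and succinate dehydrogenase subunit Sdha from 4981, 5145 and 5120.1 to 4098, 3979.6 and 4017. Mdh2 rose to 2545 ± 79.7 against 1919 ± 36.4. Without Klf6-deleted library 1 or 2, or without Lyz2cre library 3, 1 of the 34 rose. Scaled to total reads, 19 of the 34 rose and 3 fell, with a median of 0.15, so the direction of the small changes rests on the scaling, while Fh1 and Mdh2 kept theirs.

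Proliferation genes were higher. Of 36 DNA replication genes, 29 rose and 2 fell, the 2 being lost in part or whole without any 1 library but Lyz2cre library 3. Of 32 mitosis genes 31 rose and 1 fell. The median log2 changes were 0.67 and 1.28. Rrm2, of ribonucleotide reductase, was at 680.2, 669.9 and 635 against 264, 249 and 195, and the helicase subunit Mcm5 at 1054 ± 88.0 against 490.4 ± 12.7. Mki67, the Ki-67 antigen of dividing cells, was at 1635, 1306 and 1386 against 700.3, 529 and 680.3, and the mitotic kinesin Kif2c at 159, 151 and 143 against 49.2, 33.9 and 37.2. The centromeric histone gene Cenpa was the mitosis gene that fell, at 674, 634 and 621 against 1220.0, 1178 and 1047. Of 25 cyclins, kinase inhibitors and p53 targets, 13 rose and 5 fell. Cyclin D2, Ccnd2, rose 7.03-fold to 713, 645 and 635, and Ccnd1 was at 1925 ± 148 against 736 ± 39.9. The inhibitors differed: Cdkn1a, a p53 target, rose to 2159, 2286 and 2303 from 1127, 1144 and 1235, while Cdkn1c fell to 213, 210.3 and 170.5 from 615, 649 and 656 and Cdkn1b to 925 ± 25.2 against 1425 ± 45.9. Stromal cells divide too, and their part in these counts was not tested.

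Mitotic genes are repressed in resting cells through the cell cycle homology region, TTTGAA, which with CCAAT boxes marks their promoters. TTTGAA was in 18 of 25 matched promoters of mitosis genes that rose (72.0%) against 12.1% of those of genes tested and 18.1% of all promoters, and CCAAT likewise in 18 of 25 against 38.8% and 37.9%. Over all tested members of the list, each was in 19 of 26 promoters (73.1%). Kif2c (chr4:117178773-117179022 on the minus strand) and Cdc20 (chr4:118437344-118437593 on the minus strand), an activator of the anaphase-promoting complex at 339 ± 12.0 against 126 ± 10.1, had the largest increases with the motif upstream of the start, shown with the match in capitals, in Kif2c as the reverse complement.
Kif2c: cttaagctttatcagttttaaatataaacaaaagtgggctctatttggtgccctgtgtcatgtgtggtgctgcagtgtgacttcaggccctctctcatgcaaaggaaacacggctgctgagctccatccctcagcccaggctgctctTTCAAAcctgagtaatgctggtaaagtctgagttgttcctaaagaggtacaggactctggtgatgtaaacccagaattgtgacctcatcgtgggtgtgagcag
Cdc20: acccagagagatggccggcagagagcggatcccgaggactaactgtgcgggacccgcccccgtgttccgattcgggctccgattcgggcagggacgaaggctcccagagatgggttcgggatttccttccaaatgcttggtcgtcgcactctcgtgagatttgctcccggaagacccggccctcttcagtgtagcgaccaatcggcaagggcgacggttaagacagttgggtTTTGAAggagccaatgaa

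Letters that Krüppel-like and Sp factors bind were searched in the same promoters. The GC box GGGCGG was in 64.6% of promoters of genes that rose, 68.3% of those that fell and 64.7% of those of genes tested. CACCC was in 63.9%, 64.8% and 62.4%. A match of this kind is a description of the letters and not a site.

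Among the pathway lists, the highest median log2 changes were those of collagen chains, other matrix proteins and collagen processing enzymes. Of 19 collagen chain genes, 16 rose and none fell, with a median of 3.56. Col1a1 was at 16842, 15524 and 15952 against 570.1, 529 and 613 and Col6a1 at 6538 ± 235 against 505 ± 79.4. Col18a1 at 967 ± 48.3 against 918 ± 84.6, Col4a5 at 334 ± 71.1 against 299.9 ± 42.2 and Col7a1 at 33.4 ± 5.67 against 22.5 ± 8.12 did not pass the test. Of 21 enzymes that modify, fold or crosslink collagen, 19 rose and 1 fell, Plod1, which did not pass the test when scaled to total reads or without Klf6-deleted library 1 or 2 or Lyz2cre library 3. The crosslinking oxidases Lox and Loxl2 were at 8950.0, 7698 and 7704 against 443, 442 and 489 and 1404, 1345 and 1291 against 64.6, 44.8 and 78.8. All 27 other matrix genes that passed the filter rose, of 32 in the table. Thbs1, thrombospondin 1, was at 20559 ± 1114 against 3248 ± 354, and Spp1, osteopontin, which macrophages and bone cells make, at 85489.5, 86598 and 96365 against 27257, 26726 and 24934. Of 25 matrix proteases and inhibitors, 18 rose and 5 fell, with Adamts5 at 256 ± 33.5 against 9.18 ± 6.09, and the gelatinase Mmp9 lower at 197 ± 20.4 against 419 ± 51.6.

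These increases stood beside those of the cell type markers, whose part in them was not tested. All 17 stromal markers that passed the filter rose, of 20 in the table. So did 8 of 8 smooth muscle and pericyte markers and 6 of 6 osteoblast and cartilage markers, of 14 and 12 in the table. Of 10 endothelial markers that passed, of 15 in the table, 8 rose. A marker read in only 1 genotype passes the filter through that group. With no filter, 19 stromal, 10 smooth muscle, 8 osteoblast and 9 endothelial markers were higher and none was lower. The stromal chemokine Cxcl12 was at 3698, 4020.5 and 4214 against 251, 168 and 194, the growth factor receptors Pdgfrb at 1208, 1182 and 1271 against 111, 99.3 and 106 and Pdgfra at 656 ± 38.4 against 134 ± 25.8. Smooth muscle actin, Acta2, was at 6834, 6635 and 6239 against 434, 426 and 481. Runx2 and Sp7, the factors of bone formation, were at 259.6 ± 5.64 against 80.2 ± 10.8 and 62.0 ± 8.78 against 5.18 ± 2.63. Endothelial Pecam1 was at 135 ± 6.87 against 47.7 ± 4.51 and Cdh5 at 84.5 ± 28.3 against 32.5 ± 12.1.

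The TGF-beta and BMP pathway, a main inducer of matrix genes, had 21 of 31 genes higher and 5 lower. Its ligands differed in direction. Tgfb1, the form that macrophages make, fell to 6876, 6829 and 7084 from 11140.1, 11621 and 11105, and Bmp2 to 338, 324 and 285 from 1537, 1489 and 1566, 4.85-fold lower. Tgfb2 and Tgfb3 rose, to 336, 300.1 and 268 from 27.4, 19.4 and 15.3 and to 501, 530.4 and 455 from 52.5, 40.0 and 33.9. The receptor gene Tgfbr2 was lower at 6322 ± 461 against 11048 ± 166, and Tgfbr1 was at 3850.4 ± 261 against 3686 ± 75.0 and did not pass the test (limma, adjusted p = 0.27). Among targets and inhibitors, Ccn2 was at 4759, 4247 and 3959.6 against 437, 384 and 429, the inhibitory Smad7 at 287 ± 20.4 against 100.2 ± 4.47, Smad6 at 168 ± 9.40 against 30.9 ± 11.1 and the BMP target Id1 at 99.2 ± 8.15 against 24.0 ± 4.84. The activin antagonist Fst and the activin chain Inhba both rose, to 181 ± 8.36 against 13.7 ± 5.34 and 833 ± 92.6 against 85.7 ± 8.54.

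Genes of lipid handling moved in both directions. Macrophages load cholesterol through scavenger receptors and export it through ABCA1 and ABCG1 to apolipoproteins. Beside the rise of Cd36 given above, the lipid droplet coat gene Plin2 was at 35002, 34418 and 35616 against 19130.0, 20396 and 19596 and the lipase inhibitor Hilpda at 431, 506 and 516 against 229, 196 and 200.2. On the export side Abca1 fell to 8943, 7935 and 8644 from 16311, 15345 and 15519, and Apoe to 209332, 206157 and 231138 from 370981, 387083 and 390990.0. Abcg1 was at 5368, 5018 and 4965 against 4835, 4788 and 4824 and did not pass the test (limma, adjusted p = 0.059). Cyp27a1, which makes 27-hydroxycholesterol, fell 3.03-fold to 1042, 1056 and 1062, and the phospholipid transfer protein gene Pltp to 24669 ± 543 against 61179 ± 1295. Nr1h3, the gene of the oxysterol receptor LXR alpha, was higher at 568 ± 50.9 against 357 ± 14.6. As lists, cholesterol efflux and LXR targets had 4 of 18 higher and 5 lower, or 8 and 5 scaled to total reads, and lipid storage and fatty acid use had 7 of 24 higher and 11 lower, or 11 and 5. No direction of either list as a whole holds under both scalings.

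Lysosomal genes were mostly lower by small steps. Of 34, 23 fell and 5 rose, with a median log2 change of -0.21, and scaled to total reads 18 fell and 8 rose. Without Klf6-deleted library 2 or without Lyz2cre library 3 the count of risen genes was 2, and without Lyz2cre library 1 it was 3. Ctsc fell the most, to 7692, 7366 and 8884 from 15726, 15051 and 15604, and the membrane glycoprotein gene Lamp1 was at 31258 ± 751 against 46771 ± 1079, while Gla, alpha-galactosidase, rose to 6904, 7146 and 6791 from 4266, 4636 and 4298. Iron genes had 12 of 19 lower and 4 higher. Slc40a1, which encodes the iron exporter ferroportin, fell 4.66-fold to 558, 616 and 548 from 2622, 2819.6 and 2591, and Ncoa4, the receptor that sends ferritin to lysosomes, to 2205, 2215 and 2222 from 5514, 5731 and 5691. The haem-degrading enzyme gene Hmox1 was higher at 16072 ± 58.5 against 13849 ± 329. Tfrc, the transferrin receptor, was at 8329 ± 449 against 8173 ± 251 and did not pass the test (limma, adjusted p = 0.6).

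Eicosanoid genes differed by step. Of 20, 8 rose and 7 fell. The constitutive cyclooxygenase Ptgs1 fell 4.68-fold, to 213, 243 and 268 from 1204, 1073 and 1112, and the inducible Ptgs2 rose to 126, 71.8 and 73.1 from 26.3, 12.1 and 19.7. The prostaglandin E synthase Ptges was at 140.0, 121 and 132 against 52.5, 41.2 and 52.5, and Hpgd, which inactivates its product, is among the largest decreases above. Tbxas1, for thromboxane, and Hpgds, for prostaglandin D, fell to 2863 ± 80.6 against 4308 ± 176 and 5728 ± 242 against 7684 ± 162. Of 20 chemokines, 12 rose and 4 fell. The monocyte attractants Ccl2 and Ccl7, ligands of CCR2, were at 323, 409 and 459 against 123, 83.5 and 90.8 and 225, 294 and 325 against 63.5, 49.6 and 58.0, and the neutrophil attractant Cxcl5 at 672 ± 185 against 76.7 ± 24.8. The macrophage chemokines Ccl6 and Ccl9 fell to 7895 ± 1243 against 11605 ± 505 and 9779 ± 691 against 12914 ± 57.5. Of 14 chemokine receptors, 7 rose and 3 fell, with Ccr1 at 305, 332 and 389.7 against 86.4, 132 and 104 and the chemerin receptor Cmklr1 at 1159.5 ± 134 against 2482 ± 42.1.

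Immediate early genes, induced within minutes by growth factors or stress, had 17 of 25 higher and 7 lower. Fosl1, of the AP-1 family, was at 215, 213 and 220.0 against 70.0, 60.5 and 41.6, and the MAP kinase phosphatase gene Dusp4 at 1129, 1114 and 1047 against 395, 439 and 379.5. Btg2 and Ier3 fell, to 486 ± 30.7 against 902 ± 86.1 and 259 ± 40.6 against 413 ± 43.9. In the Wnt and Notch pathways 12 of 22 genes rose and 7 fell. The receptor Notch1 fell to 735, 775 and 844 from 1789, 1754 and 1786 and Notch3, of smooth muscle and pericytes, rose to 130.0, 162 and 139.6 from 14.2, 8.47 and 10.9, and the ligand Jag1 was at 1297 ± 25.8 against 368 ± 43.8. Of 21 semaphorins, plexins and other guidance genes, 13 rose and 7 fell. Sema4a and Plxnd1, both expressed by macrophages, fell to 769 ± 92.1 against 1986 ± 82.6 and 3614 ± 185 against 9098 ± 224, and Slit3 rose to 146 ± 25.5 against 7.64 ± 4.75.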

How the data were processed

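Total RNA was depleted of ribosomal RNA and made into stranded libraries, per the labels' protocols, and the submitters' processing notes name Cufflinks, GRCm39 and mm10 with no role or version. The values of the deposited untreated table are a signal on a normalized count scale. Division by each column's smallest step gave whole reads within 0.001 reads for 100% of values, so the values are the authors' read counts divided by 1 size factor per library, median-of-ratios within the table. Whether counting used strand is not given in the sources used here. Symbols came from a gene name table for 22867 of 22896 identifiers, positions from GENCODE vM21 (GRCm38) and promoters from RefSeq GRCm38.p6, matched by symbol for 9678 of 12715 genes tested.

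The main test was limma 3.58.1 with a trend on log2(normalized count + 1), over genes that reached 1 CPM in 3 or more of the 6 libraries, 3 against 3, with Benjamini-Hochberg adjustment over all genes tested and a threshold of 0.05. The recovered counts gave edgeR 4.0.16 and DESeq2 1.42.0 as alternatives, in R 4.3.3. The other alternatives were no filter, 5 CPM, a pseudocount of 0.5, scaling to total reads, a replicate block and leaving out each library. The limma step was also run on simulated counts with 200 changed genes. These are far fewer than were called here, so that run does not speak to the choice of scaling. Differences from the TNF genotype effect came from 1 limma model over 12 libraries, whose 2 tables were normalized separately. Promoters were searched in Python 3.11.15.

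Libraries 1, 2 and 3 of the genotypes were not treated as pairs. Same-numbered libraries had correlations of 0.152, -0.0378 and 0.158 of their deviations from group means, and unlike-numbered libraries -0.230 to 0.114. These values do not settle whether the numbers mark pairs, and the replicate block was run as an alternative for that reason. The genes, lists and motifs were chosen with earlier results of these data known. Named genes were the 12 highest and 12 lowest log2 changes among called genes with an established symbol (not Gm and digits, not ending in Rik, not an identifier) and a mean of at least 50 in the higher group, and in each list the 4 largest changes and 3 highest levels. A few genes that this rule names are not reported here. Further list members were named after their values were seen.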

Additional observations from a re-analysis of the deposited data

Results flagged for a closer look

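For 9 of the 10 genes tested, the genotype effect without TNF differed from that after TNF by the limma test of the difference, where 48.9% of 13062 genes did, so a difference of this kind is common in these libraries. Klf6 had log2 changes of -0.51 without and -0.84 with TNF, a difference of 0.33 (standard error 0.0525, adjusted p = 3.3e-05). The interferon-induced genes differed most and in sign, by 7.20 for Iigp1, 5.24 for Gbp2 and 3.59 for Nlrc5. Arg1 had log2 changes of 6.55 and 3.33, a difference of 3.22, and Col1a1 4.82 and 3.38, a difference of 1.44. Csf1r and Lyz2 were lower in Klf6-deleted cells with and without TNF, and more so without it, with differences of -0.58 and -0.98. Lyz2 is the locus that carries Cre, and the sample labels do not give the number of Cre alleles. Whether that number differed between genotypes was not tested. Cd5l, a secreted macrophage glycoprotein, was higher in Klf6-deleted cells with and without TNF, and less so without it, with a difference of -1.06. Each of these directions was the same in all 3 libraries of both conditions, since the groups did not overlap within either.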

How the results depend on the processing

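Scaling to total reads moved the most values. It gave 2408 genes lower in place of 3722, and as list counts 5 lower Klf and Sp genes, 0 lower MHC class I genes, 19 higher and 3 lower citrate cycle and respiratory genes, 0 lower replication genes, 0 lower collagen processing enzymes, 8 higher lysosomal genes, 8 higher efflux genes, 11 higher and 5 lower lipid storage genes, 3 higher lectins, 3 lower arginine genes, 13 higher chaperones, 5 lower oxidative stress genes, 7 higher iron genes and 2 lower cell death genes. It turned the median of lipid storage to 0.064 and the log2 change of Cd68 to 0.00051, of Hspa5 to 0.12 and called higher, of Plod1 to 0.015 and of Tlr4 to 0.12 and called higher. The filter at 5 CPM left fewer genes to test and gave 5 higher smooth muscle markers, 4 higher endothelial markers, 2 higher efflux genes and 8 higher guidance genes. With no filter 1 MHC class II gene was higher. On the recovered counts edgeR called 3662 genes higher and 3557 lower and DESeq2 3372 and 3322, and they called 1 and 0 replication genes lower. With the replicate block, 3526 genes were higher and 3758 lower, 2 lectins were higher, and the block changed no other list count by over 1.5 times. The causes of these shifts were not tested. With any 1 library left out, 3224 to 3366 genes were higher and 3397 to 3530 lower, 1 to 2 citrate cycle and respiratory genes were higher, 0 to 2 replication genes were lower, 0 to 1 collagen processing enzymes were lower, 2 to 5 lysosomal genes were higher and 1 to 2 lectins were higher. The median of the citrate and respiratory list was between -0.0017, without Klf6-deleted library 2, and 0.027 with any 1 library left out. Of the 219 called genes named in the text, 4 lost the call in at least 1 of 13 alternatives with their direction kept, 2 changed sign, and the log2 change of Klf6 lay between -0.54 and -0.38 in all 13. The 9 differences between untreated and TNF effects kept their direction and call in every alternative run. Depth limits the genes near 0, which rest on a few reads in 1 group.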

Other observations

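Of 27 proteasome genes, 18 rose by small steps and none fell, with a median log2 change of 0.16, and scaling to total reads gave 26 higher. Among the 27 genes of oxidative stress and glutathione, 14 rose and 8 fell. Gclm, a subunit of the enzyme that starts glutathione synthesis, was at 3410.1, 3313 and 3148 against 1983, 2046 and 1897, Srxn1, which repairs peroxiredoxins, at 5105 ± 396 against 2698 ± 75.9 and Me1, which makes NADPH, at 319 ± 31.0 against 82.9 ± 10.4. The gene of the factor that induces them, Nfe2l2, was lower at 4973, 4919 and 5488 against 6864, 7254 and 6856. Of 25 genes of inflammasomes and cell death, 11 rose and 8 fell. The necroptosis genes Ripk3 and Mlkl were at 490.1, 473 and 503 against 216, 228 and 222 and 513, 474 and 486 against 198, 246 and 221, and Bcl2, of a survival protein, at 386 ± 40.0 against 125 ± 17.3, while Casp4 fell to 182 ± 24.9 against 416 ± 16.0.

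A few genes were near 0 in 1 genotype only. With every library below 5 in 1 group and every library at 50 or more in the other, 17 genes were near 0 in Lyz2cre libraries. Eps8l1 was among those near 0 in Klf6-deleted libraries. The lincRNA 1700016G22Rik (chr13:5855508-5858092, GRCm38), just upstream of Klf6, was at 120.0, 156 and 122 against 0, 0 and 1.09. On chromosome 13, Gm18562 was at 83.4, 83.7 and 90.9 with no read in Lyz2cre libraries. Of the 36 genes tested within 10 Mb of Klf6, 13 rose and 12 fell, 69.4% changed against 56.9% of all genes. Over the whole of chromosome 13, which carries Klf6, 92 of 477 genes tested rose and 201 fell. Their median log2 change was -0.16, against -0.01 over all genes, and the cause was not tested. The genes near 0 and those around Klf6 were singled out after their values were seen.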
